A study of Mus musculus with 16 samples.

Results

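The ribosomal protein genes described here are the 84 protein-coding genes whose symbols are Rpl or Rps followed by a number and at most a short letter ending, together with Rpsa, Rplp0, Rplp1 and Rplp2. The rule takes 52 genes of the large (60S) subunit and 32 of the small (40S) subunit out of 53465 genes in the count table, of which 22040 are protein coding, and it leaves out the Rps6k kinases, which are not ribosomal proteins. Their ribosome footprints and poly(A)+ mRNA were measured in 4 conditions: dorsal root ganglia (DRG) after spared nerve injury (SNI), DRG after sham surgery, dorsal spinal cord after SNI, and dorsal spinal cord after sham surgery. In SNI the sciatic nerve is injured at its tibial and peroneal branches, while its sural branch stays whole. In sham mice the nerve was exposed and left intact. All mice were female C57BL/6J operated on both sides at 8 weeks of age, and L3 to L5 DRG and the matching dorsal cord were taken 30 days later. Each condition had 2 lysates, each from pooled tissue of 10 mice, and each lysate gave 1 footprint library and 1 mRNA library, so n = 2 pools stands for every group of libraries and p-values measure the spread between pools of mice, not between single animals. Both tissues hold many cell types, and fewer cells of a type and less RNA per cell cannot be told apart in them.

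Ribosomal proteins, with the ribosomal RNAs, build the ribosome. The large subunit forms the peptide bond and carries the stalk of Rplp0, Rplp1 and Rplp2 that recruits the elongation factors, and the small subunit reads the mRNA. Most vertebrate ribosomal protein mRNAs start with a 5′ terminal oligopyrimidine (TOP) tract, a C followed by an unbroken run of pyrimidines, through which mTORC1 and LARP1 control their translation together. These genes are also known for very many processed pseudogenes, near copies of the mRNA elsewhere in the genome.

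Where a stretch of about 30 bases occurs in several genes, the sequence of a footprint alone does not tell which gene it came from, and how the counting treated such reads is not given in the sources used here. The first 30 coding bases of 3 genes with no copy of that window in another transcript, and of 2 with many, show the contrast. They are written 5′ to 3′ from the GENCODE M21 transcripts, with the start codon in capitals.
Rps3 (chromosome 7, 0 other genes with this window): ATGgcggtgcagatttccaagaagaggaag
Rpl8 (chromosome 15, 0 other genes): ATGggccgtgtgatccgagggcagaggaaa
Rplp1 (chromosome 9, 0 other genes): ATGgcttccgtctccgagctcgcttgcatc
Rpl21 (chromosome 5, 40 other genes): ATGacgaacacaaagggaaagaggagaggc
Rpl29 (chromosome 9, 27 other genes): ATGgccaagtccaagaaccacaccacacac
The first coding window of 68 of the 84 genes occurred in the transcript of another gene. Over the whole coding sequence, the median gene had 3.44% of its 30-base windows in no other gene (2.47% for the large subunit and 4.69% for the small), 59 genes had under 10% and 2 had over 90%. Over the whole mRNA, with its untranslated ends, the median was 35.2%. The annotation names 277 pseudogenes by the symbols of 58 of the genes.

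The TOP tract is shown for 7 genes in which it began at the annotated start, because it is the element these mRNAs are known to share. The windows run from 10 bases before the start to 20 bases from it on (RefSeq, GRCm38.p6, on the gene's strand), with the C and the pyrimidines after it in capitals.
Rps6 (chr4:86857348-86857377, minus strand): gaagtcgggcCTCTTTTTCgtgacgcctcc
Rps15a (chr7:118116128-118116157, minus strand): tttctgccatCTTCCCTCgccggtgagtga
Rps10 (chr17:27635225-27635254, minus strand): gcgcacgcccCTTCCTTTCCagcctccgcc
Rpl15 (chr14:18270967-18270996, minus strand): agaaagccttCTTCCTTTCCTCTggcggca
Rpl28 (chr7:4792955-4792984, plus strand): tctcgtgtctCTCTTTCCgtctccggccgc
Rpl38 (chr11:114668570-114668599, plus strand): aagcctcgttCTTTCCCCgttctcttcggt
Rplp2 (chr7:141447641-141447670, plus strand): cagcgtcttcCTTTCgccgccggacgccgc
RefSeq starts were matched for 64 of the genes, with 76 starts. A C followed by at least 4 pyrimidines on the gene's own strand stood exactly at 13 of these starts (17.1%). The share was 2.51% of 32851 mouse starts of any gene. Such a C directly after a purine lay within 10 bases of 39.5% of the starts, against 22.9%. This second share leaves out a C that follows another pyrimidine, as at the starts of Rps15a, Rpl28, Rpl38 and Rplp2. The match is a description of annotated starts, which can lie some bases from the true one.

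The libraries held 6898056 to 21613483 footprint reads and 18176471 to 28553113 mRNA reads in genes. Of these, the 84 genes took 0.161% ± 0.0011 of footprint reads in DRG after SNI and 0.158% ± 0.00084 in DRG after sham, and 0.177% ± 0.0015 in spinal cord after SNI and 0.166% ± 0.00029 after sham (SD, n = 2 pools each). Their share of mRNA reads was 0.385% ± 0.0011 in DRG after SNI and 0.373% ± 0.0012 in DRG after sham, and 0.349% ± 0.0041 in spinal cord after SNI and 0.339% ± 0.016 after sham. Within each tissue the SNI and sham shares of footprints did not overlap, nor did those of DRG mRNA, while those of spinal cord mRNA did. No test was run on these shares, since an exact test of 2 pools against 2 cannot pass 0.05. The 2 sham spinal cord mRNA pools stood apart in these genes, at 0.327% and 0.350%, with a mean chi-square per gene of 4.55 over the ribosomal protein genes against 1.76 over all genes. The tissue labels fitted their markers: 10 sensory neuron genes summed to 6112 to 6305 CPM (read counts scaled to a common library size after TMM) of mRNA in DRG against 92.2 to 114 in spinal cord, and 8 oligodendrocyte genes to 212 to 219 against 3661 to 3887.

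Reads per gene followed the unique share. In the 32 genes with no unique coding window the median was 80 footprint reads over all 8 libraries and 2.15 footprint CPM per kilobase of coding sequence. It was 896 reads and 19.9 per kilobase in the 27 genes with up to 10% unique windows, 2450 and 66.8 in the 18 genes with 10 to 50%, and 13621 and 174 in the 7 genes with more. Across the 84 genes Spearman's rho between unique share and footprints per kilobase was 0.669, and 0.858 over 81 genes without Rpl3l, Rpl10l and Rpl39l, paralogs with few reads of any kind. Genes share their libraries here, so this is a description. Per kilobase of coding sequence, Rpl8 (255, median of 8 lysates, in the same unit), Rps3 (206), Rpl4 (174) and Rplp1 (149) were among the highest, and among genes that passed the read filter below Rps4x (6.75), Rpl3 (9.25), Rps3a1 (9.61) and Rps18 (11.6) were among the lowest. Since a ribosome holds 1 copy of most of these proteins, with the stalk proteins as an exception, such a spread of footprint levels between genes is not read further. Rpl41 did not follow the relation, with 140 footprint CPM per kilobase and no unique coding window. Differences between conditions and tissues below compare each gene with itself between libraries, while comparisons of F/T between genes or gene groups carry whatever the counting did to each gene. The footprints and the mRNA reads of a gene can also come from different parts of it, since mRNA reads can fall in untranslated ends. Among genes named below for a tissue difference in their ratio, Rpl29 had 0.66% unique coding windows, Rpl6 3.48%, Rpl23 7.61%, Rplp1 21.8% and Rps14 32.3%. The part of read placement in those differences was not tested.

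**Figure D1:**
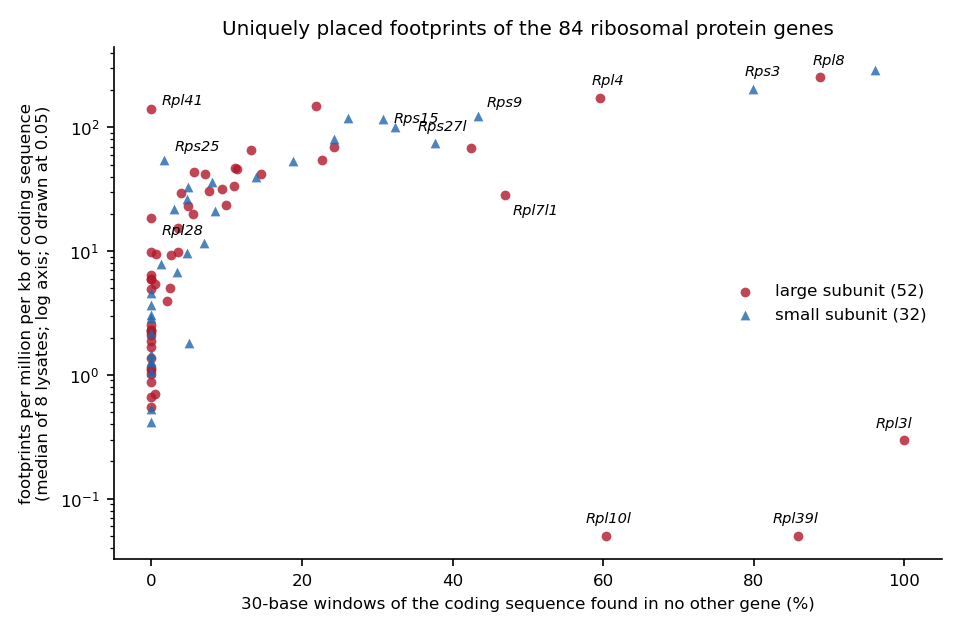
Footprint CPM per kilobase of coding sequence (y axis, log scale, median of 8 lysates) against the percent of 30-base coding windows found in no other gene (x axis), 1 point for each of the 84 genes, circles for the large and triangles for the small subunit. The 32 genes at 0% had a median of 2.15, and Rpl8, Rps3 and Rpl4, with 59.6% to 88.9% unique windows, stood between 174 and 255.

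A minimum of reads, given with the processing and called the read minimum here, was applied to each assay. Of the 84 genes, 79 reached the read minimum for mRNA, summed over the 4 DRG libraries and 80 over the 4 spinal cord libraries, and 53 and 44 reached it for footprints. All genes that passed for footprints also passed for mRNA, so 53 (32 large, 21 small) reached it in both assays in DRG and 44 (25 large, 19 small) in spinal cord. The same 44 genes, 52.4% of the family, passed in both assays of both tissues, and 19 reached it in each of the 16 libraries. Among genes that reached it for mRNA over all 8 libraries of that assay, 30% of the 80 ribosomal protein genes fell short for footprints, against 8.02% of 14535 protein-coding genes. The 9 genes that passed in DRG alone were Rpl10a, Rpl13a, Rpl21, Rpl27, Rpl29, Rpl35, Rpl36a, Rps6 and Rps7.

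The 28 genes under the read minimum for footprints over all 8 libraries included Rpl5, Rpl9, Rpl10l, Rpl11, Rpl12, Rpl13, Rpl17, Rpl19, Rpl23a, Rpl24, Rpl27a, Rpl31, Rpl36, Rpl36al, Rpl38, Rpl39, Rpl39l and Rpl3l of the large subunit and Rps12, Rps13, Rps16, Rps23, Rps27, Rps28, Rps29 and Rpsa of the small. Only Rpl10l, Rpl39l, Rpl3l and Rpl24 of these were also under it for mRNA. Rpl38, a small protein at the outer edge of the large subunit, had 5122 mRNA reads in DRG and 5007 in spinal cord, but 78 and 40 footprint reads. Rpl27a had 4283 and 3883 mRNA reads, and 28 and 50 footprint reads. Neither has a unique 30-base coding window, and the part of that in their low footprint counts was not tested.

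For the 44 genes that passed, the ratio of footprints to mRNA per lysate (F/T, on TMM-normalized counts with 0.5 reads added) was low in every lysate. The median gene had a log2 F/T of -1.15 and -1.14 in DRG after SNI and -1.15 and -1.19 in DRG after sham, and of -0.97 and -0.95 in spinal cord after SNI and -0.97 and -0.98 after sham. The median of 11147 protein-coding genes that passed the same filter lay between -0.22 and -0.13. In linear terms the family stood at 0.438 to 0.518 and all coding genes at 0.857 to 0.913 footprints per mRNA read after scaling. Of the 44 genes, 39 to 42 lay below the coding median of their lysate, 17 lay under percentile 10 of all coding genes by their median over lysates, and 29 under percentile 25. DRG and spinal cord lysates did not overlap in this median.

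**Figure D2:**
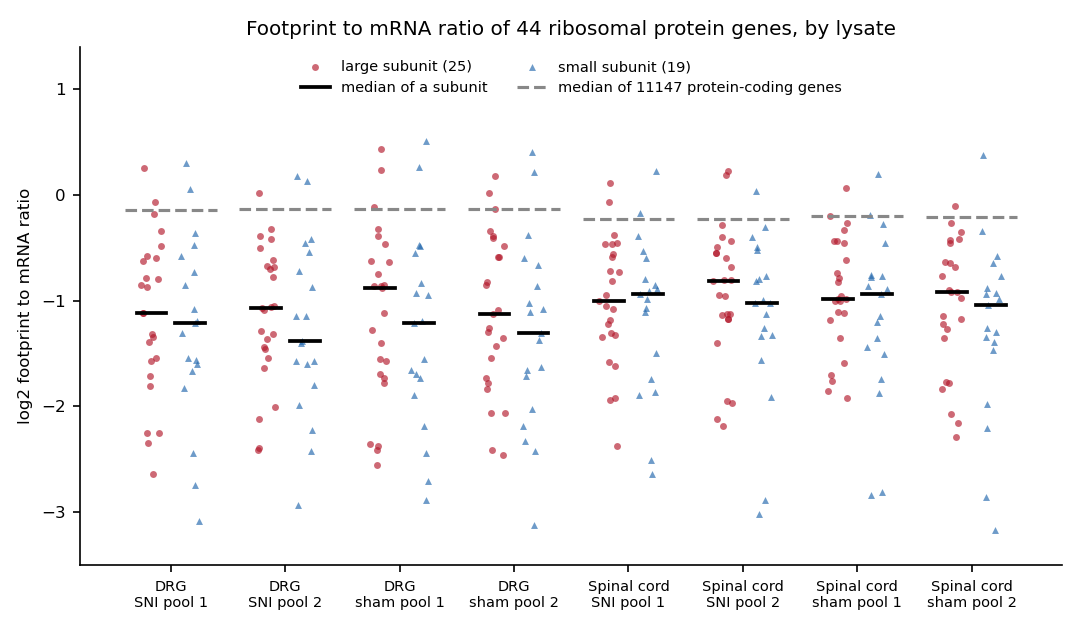
Log2 footprint to mRNA ratio (y axis) of the 25 large subunit (circles) and 19 small subunit genes (triangles) in each of the 8 lysates (x axis), with black lines at the subunit medians and a dashed line at the median of 11147 protein-coding genes. The points spread from -3.17 to 0.51, and both subunit medians lie below the dashed line in every lysate.

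The following gene groups, listed for comparison, stood higher. The 75 mitochondrial ribosomal protein genes that passed, whose products build the separate ribosome of mitochondria, had lysate medians between -0.20 and -0.03. The 18 other mRNAs with a known TOP tract, such as those of elongation factors, had -0.36 to -0.15, the 19 genes of ribosome biogenesis 0.02 to 0.11, and the 12 genes of the mTORC1 and TOP control pathway -0.57 to -0.21. Unique share moved with F/T only in part: the 4 genes with over 50% unique coding windows had a median log2 F/T of -0.53, against -1.16 for the 18 genes with 10 to 50%, -1.38 for the 20 genes with up to 10% and -1.13 for the 2 genes with none. Across all 44, Spearman's rho of unique coding share and log2 F/T was 0.11. Because mRNA fragments, but hardly any footprints, can fall in the more unique untranslated ends, the share of a gene's unique windows that is coding was also computed. It had a rho of 0.142 with F/T over 42 genes. The median was -1.42 for the 14 genes with the lowest share (0.489% to 17.3%). It was -0.91 for the middle 14 (18.5% to 37.0%) and -1.12 for the 14 with the highest (42.7% to 100%). The part of unequal placement of the 2 kinds of read in the low F/T was not tested beyond these values.

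Single genes differed by up to about 3 log2 units in their median over lysates. Rps20, a protein of the small subunit head, had the lowest median and was lowest in 7 of 8 lysates, with Rps15a below it in the first sham pool of spinal cord. Its log2 F/T was -3.08 and -2.93 in DRG after SNI, -2.88 and -3.12 in DRG after sham, -2.64 and -3.01 in spinal cord after SNI, and -2.81 and -3.17 after sham. Rps15a (median over lysates -2.72), Rpl22 (-2.24), Rps24 (-2.21) and Rpl41 (-2.14) followed. The highest median was that of Rps25, a small subunit protein known for its part in initiation at some internal ribosome entry sites, with 0.30 and 0.18 in DRG after SNI, 0.51 and 0.41 in DRG after sham, 0.23 and 0.03 in spinal cord after SNI and 0.20 and 0.38 after sham. In the second SNI pool of spinal cord, Rpl22l1 (0.23) and Rpl7a (0.19) lay above it. Rpl28 (-0.13), Rpl7a (-0.33) and Rpl6 (-0.38) were also among the highest. Rpl41 and Rpl28 have no unique coding window, so the same limit applies to their ratios as to the counts of Rpl38 and Rpl27a. Rps20 had 4.83% unique coding windows and 89.0% over its whole mRNA, and Rps25 1.72% and 37.0%. Of the exonic bases of Rps25, 24.8% also lie in exons of Ccdc84 or Trappc4 on the other strand, and the sequencing was not strand-specific. The part of this overlap in the ratio of Rps25 was not tested. Of the genes with the most unique and deepest reads, 3 lay between these ends and below the coding median, Rpl8 at -0.46, Rpl4 at -0.49 and Rps3 at -0.91.

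Large and small subunit genes were not separated by F/T. The large subunit median minus the small subunit median was 0.10 and 0.31 log2 units in DRG after SNI and 0.33 and 0.18 in DRG after sham, and -0.07 and 0.21 in spinal cord after SNI and -0.04 and 0.12 after sham. The difference was positive in all 4 DRG lysates and changed sign between pools in both spinal cord groups. The mean difference was 0.21 ± 0.15 in DRG after SNI and 0.26 ± 0.11 in DRG after sham, and 0.07 ± 0.19 in spinal cord after SNI and 0.04 ± 0.12 after sham (SD, n = 2 pools). Restricted to the 19 genes that reached the read minimum in every library, it was -0.47 in DRG and -0.15 in spinal cord, so its sign depended on which genes entered. The large subunit genes had 1.095 ± 0.011 times the footprint reads of the small in DRG after SNI and 1.12 ± 0.0016 in DRG after sham, against 1.30 ± 0.018 in spinal cord after SNI and 1.30 ± 9.2e-05 after sham (SD, n = 2). For mRNA the same ratio was 1.23 ± 0.0076 in DRG after SNI and 1.24 ± 0.021 in DRG after sham, and 1.28 ± 0.0081 in spinal cord after SNI and 1.28 ± 0.0013 after sham. Both assays gave lower ratios in DRG without overlap, and 5 genes of each library held 34.2% to 50.9% of these reads, so the sums rest on few genes.

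DRG was next set against spinal cord in the sham pools, which answers how the family differs between the tissues without injury. Of 79 genes tested for mRNA with edgeR's quasi-likelihood test, 34 were higher and 23 lower in DRG (43% and 29.1%, where 38.7% of all 14706 genes were called higher and 45.6% lower). Of 47 genes tested for footprints, 15 were higher and 6 lower, against 41.2% and 37.5% of all 12729 genes. For translational efficiency (TE, the F/T ratio tested as the interaction of assay and tissue), 10 of 47 were higher and 15 lower in DRG, against 26.7% and 17.3% of all 12504 genes. Of the 47 genes, Rps7, Rpl29 and Rpl13a were under the read minimum for footprints in spinal cord. Rps7 and Rpl29 entered only through their DRG reads and are among the genes counted as higher for footprints and for TE. By subunit, 19 of 47 large and 15 of 32 small subunit genes were higher for mRNA, and 12 and 11 lower. DESeq2 called 33 higher and 12 lower for mRNA, 6 higher and 4 lower for footprints, and 4 higher and 9 lower for TE. The shares of all genes above are those of edgeR, and the shares by DESeq2 are not given here. The split of the footprint calls depended on the scaling, since with library sizes alone 10 genes were higher and 13 lower, and the median of all genes was -0.07 on this scaling against 0.04 in the TMM fit.

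**Figure D3:**
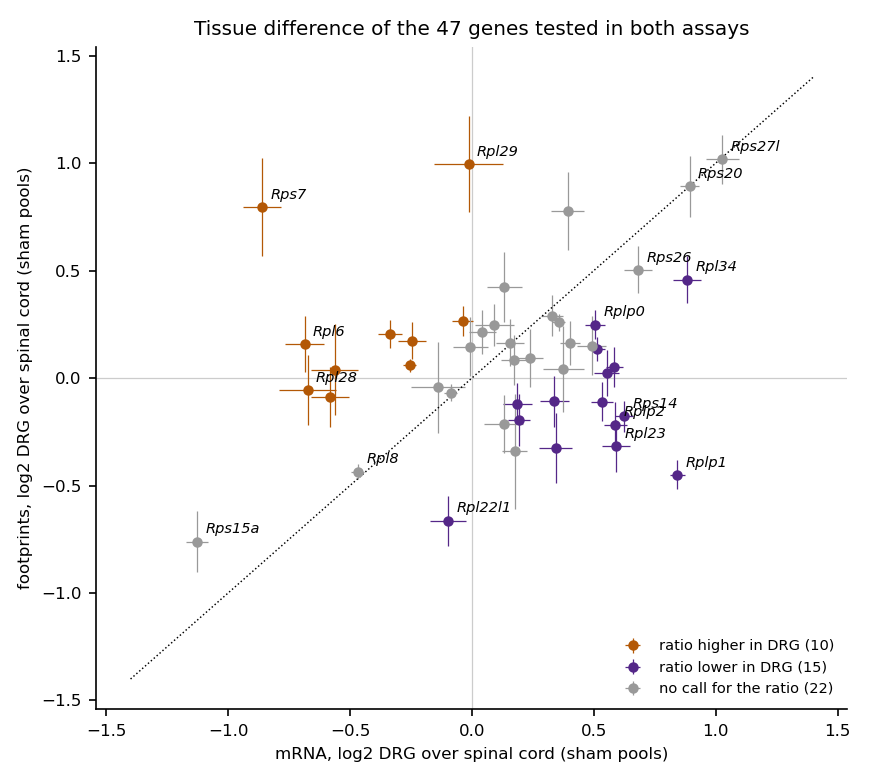
Log2 difference of DRG over spinal cord in sham pools for mRNA (x axis) and footprints (y axis) of the 47 genes tested in both assays, with standard errors as bars, coloured by the TE call (10 higher in DRG, 15 lower, 22 not called). On the dotted line both assays differ equally. Rps27l and Rps20 lie near it, Rplp1 and Rplp2 below it and Rps7 and Rpl29 above it. Rps7 and Rpl29 were under the read minimum for footprints in spinal cord and passed only with their DRG reads.

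The acidic stalk proteins held the clearest case. Rplp1 mRNA had 233 and 239 CPM in sham DRG, against 124 and 140 CPM in sham spinal cord, while its footprints had 44.9 and 43.3 CPM in sham DRG, against 62.6 and 58.0 CPM in sham spinal cord. The mRNA was thus higher and the footprints lower in DRG, with no overlap in either assay. The log2 difference was 0.84 ± 0.03 (SE) for mRNA, -0.45 ± 0.07 for footprints and -1.28 ± 0.07 for TE (edgeR with Benjamini-Hochberg adjustment, adjusted p = 4.17e-39, 6.17e-08 and 7.94e-67). The SNI pools, which did not enter that fit, showed the same order: Rplp1 log2 F/T was -2.34 and -2.39 in DRG after SNI, against -1.30 and -1.18 in spinal cord after SNI. Its partner in the stalk, Rplp2, had 110 and 96.1 CPM of mRNA in sham DRG, against 62.7 and 75.4 CPM in sham spinal cord, and 20.6 and 23.0 CPM of footprints, against 31.2 and 22.1 CPM. Its mRNA groups did not overlap, but its footprint groups did. The TE difference of Rplp2 was -0.75 ± 0.10 (adjusted p = 5.59e-12 by edgeR). DESeq2 and limma on the deposited TE did not call Rplp2, with adjusted p up to 0.108. Rplp0, on which the P1 and P2 proteins sit, was higher in DRG in both assays, by 0.50 ± 0.04 for mRNA and 0.25 ± 0.07 for footprints, with a TE difference of -0.25 ± 0.08 (adjusted p = 4.1e-19, 0.000669 and 0.0049 by edgeR). DESeq2 called neither the footprint nor the TE difference of Rplp0. Rps14 (-0.78 ± 0.08) and Rpl23 (-0.87 ± 0.14), proteins of the small and large subunit, were the other named genes with lower TE in DRG that kept the call under every alternative run.

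**Figure D4:**
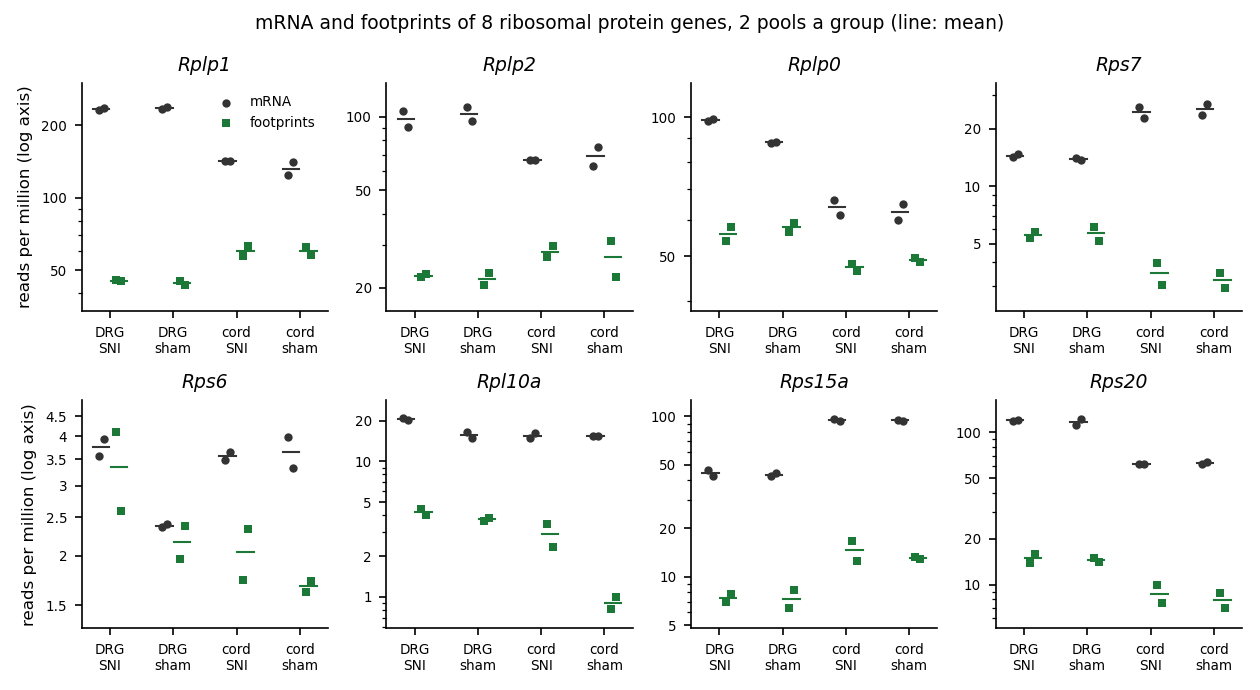
CPM (y axes, log scale) of mRNA (circles) and footprints (squares) of 8 genes in the 4 conditions, with 1 point per pool (n = 2) and a line at the mean. Rplp1 mRNA lies at 231 to 239 CPM in DRG and 124 to 142 CPM in spinal cord, while its footprints lie at 43.3 to 45.5 and 57.4 to 62.7 CPM.

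Rps7, a small subunit protein that also binds Mdm2, went the other way. Its mRNA had 13.998 and 13.8 CPM in sham DRG, against 23.7 and 27.1 CPM in sham spinal cord, and its footprints 6.16 and 5.18 CPM, against 3.51 and 2.92 CPM. The mRNA was lower and the footprints higher in DRG, and no values overlapped. The log2 differences were -0.86 ± 0.08 for mRNA, 0.79 ± 0.23 for footprints and 1.69 ± 0.24 for TE (adjusted p = 1.94e-17, 0.00163 and 1.18e-11 by edgeR). Rps7 had 112 footprint reads over the 4 spinal cord libraries and 1.26% unique coding windows. It was thus under the read minimum in spinal cord and entered the footprint and TE tests only through its DRG reads. The filter sums both tissues, so it admits such genes through the tissue where they are high. Without sham spinal cord replicate 2 the footprint difference of Rps7 was 0.64 and lost its call. DESeq2 also did not call the footprints of Rps7 (0.78, adjusted p = 0.0697). The TE call of Rps7 held under the 15 alternatives that tested it. Without sham DRG replicate 2, or with the read minimum asked of every library, Rps7 fell under the filter and was not tested. Rpl6, a large subunit protein, had a TE difference of 0.88 ± 0.16 (adjusted p = 1.65e-07 by edgeR). Its mRNA had 12.8 and 12.9 CPM in sham DRG, against 20.3 and 21.1 CPM in sham spinal cord. The TE call of Rpl6 held under every alternative that tested it. Rpl29 had a TE difference of 1.04 ± 0.27, with mRNA nearly level at -0.01 ± 0.14. It lost its TE call without sham spinal cord replicate 2 (0.62), with DESeq2 (0.96, adjusted p = 0.155) and by limma on the deposited TE (0.96, adjusted p = 0.0943). With 95 footprint reads in spinal cord, Rpl29 too entered the tests only through its DRG reads. Fau, a ubiquitin-like fusion that releases a small subunit protein and falls outside the symbol rule, had a TE difference of 0.80 ± 0.29 (adjusted p = 0.0146 by edgeR).

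Among the genes called in the same direction in both assays, with a TE that did not pass the test, were Rps27l, Rps20 and Rps15a. Rps27l, a paralog of Rps27 known as a p53 target, had 34.5 and 30.6 CPM of mRNA in sham DRG, against 15.6 and 16.5 CPM in sham spinal cord, and 24.8 and 23.5 CPM of footprints, against 13.6 and 10.6 CPM. All DRG values lay above all spinal cord values, and the log2 differences were 1.03 ± 0.07 for mRNA and 1.02 ± 0.11 for footprints (adjusted p = 6.12e-24 and 4.59e-11 by edgeR), with a TE difference of 0.02 ± 0.14. Rps20 was higher in DRG by 0.89 ± 0.04 for mRNA (111 and 122 CPM in sham DRG, against 62.0 and 63.5 CPM in sham spinal cord) and by 0.89 ± 0.14 for footprints. Rps15a was lower in DRG by 1.13 ± 0.04 for mRNA, with 42.3 and 44.1 CPM in sham DRG, against 95.0 and 93.5 CPM in sham spinal cord, and by 0.76 ± 0.14 for footprints. These values, and their order between the tissues, were much the same in the SNI pools, where Rps15a mRNA had 46.5 and 42.2 CPM in DRG and 95.6 and 93.0 CPM in spinal cord. Rpl39, a very small protein of the exit tunnel, had the largest mRNA difference of the family, 1.29 ± 0.07 (32.2 and 30.3 CPM in sham DRG, against 12.5 and 13.3 CPM in sham spinal cord, adjusted p = 1.24e-28 by edgeR), but only 42 footprint reads in DRG and 26 in spinal cord fell on it, and its footprints were not tested.

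In the DRG, SNI was then set against sham, which answers whether the family responds to the injury. For mRNA 14 of 79 genes were higher and 7 lower after SNI (17.7% and 8.86%), where 17.8% of all 14494 genes were called higher and 15.1% lower. The share of genes called higher was thus that of all genes. The median log2 change was 0.04 for the family and 0.01 for all genes, with a range of -0.18 to 0.65. For footprints 2 of 53 genes were higher and 0 lower, against 8.78% and 7.59% of all 13038 genes, and for TE 0 of 53 were higher and 1 lower, against 4.03% and 3.67% of all 12710 genes. At an unadjusted p under 0.05 by edgeR, 4 genes were higher and 2 lower for footprints, and 4 higher and 5 lower for TE. DESeq2 called 0 genes in either. Most of the mRNA calls depended on the small spread that edgeR estimated between pools, a common coefficient of variation of 0.00988: DESeq2 called 2 genes (Rpl10a and Rplp0), and 0 were called against a 1.2-fold change or with the coefficient fixed at 0.1. Without sham replicate 1, 8 were higher and 3 lower, and without SNI replicate 2, 3 were lower.

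Rps6, the small subunit protein that S6 kinase phosphorylates below mTORC1, had the largest change. Its mRNA had 3.58 and 3.94 CPM in DRG after SNI, against 2.36 and 2.40 CPM in DRG after sham, from 280 reads in all. The groups did not overlap, and the log2 change was 0.65 ± 0.18 (edgeR, adjusted p = 0.00385). The footprints of Rps6 had 4.09 and 2.59 CPM after SNI, against 1.96 and 2.38 CPM after sham, a change of 0.48 ± 0.24 that did not pass (adjusted p = 0.184). None of its coding windows is unique, and 15.1% of the windows of its whole mRNA are. The part of read placement in the counts of Rps6 was not tested. Rpl10a, a large subunit protein beside the exit site, had 20.9 and 20.2 CPM of mRNA after SNI, against 16.4 and 14.8 CPM after sham, a change of 0.40 ± 0.07 (adjusted p = 3.35e-05), and 4.43 and 4.03 CPM of footprints, against 3.64 and 3.81 CPM (0.15 ± 0.20, adjusted p = 0.693). Rpl21 (0.35 ± 0.11), Rpl6 (0.32 ± 0.08) and Rps16 (0.28 ± 0.07) were also higher for mRNA. Rpl21 lost the call without sham replicate 2 (0.31, adjusted p = 0.0837).

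**Figure D5:**
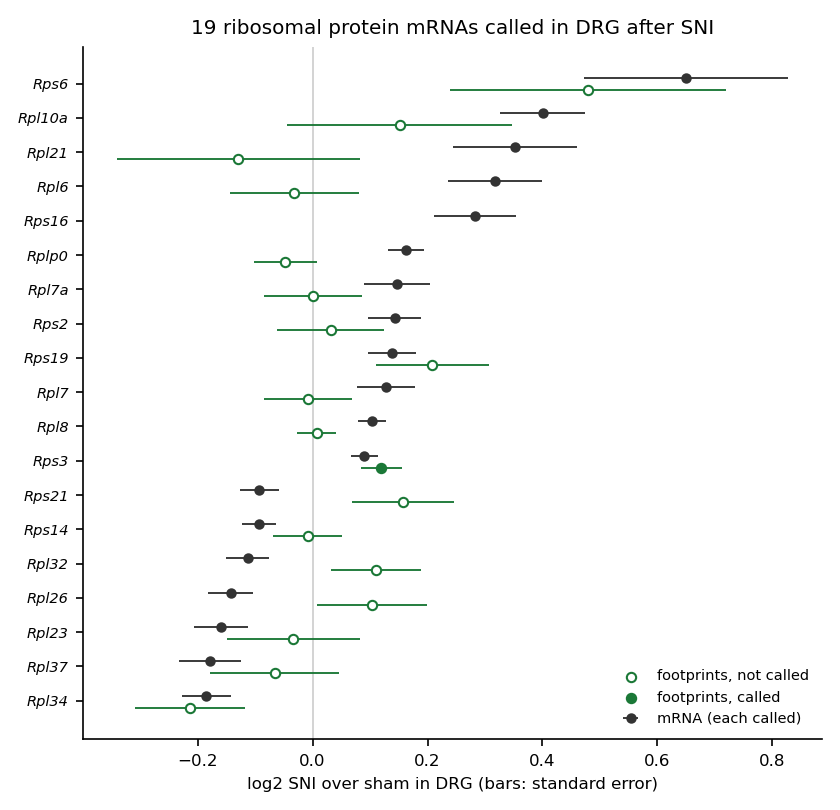
Log2 change of SNI over sham in DRG (x axis) with standard errors for 19 of the 21 genes called for mRNA (filled dark points) and, where tested, for their footprints (green, filled where called). Rps6 at 0.65 and Rpl10a at 0.40 lead the higher mRNAs, the lower ones lie between -0.18 and -0.09, and only Rps3 was also called for footprints.

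The lower mRNAs fell by little. Rpl34 had 42.4 and 40.9 CPM after SNI, against 46.6 and 48.2 CPM after sham, a change of -0.18 ± 0.04 (edgeR, adjusted p = 0.000821), and it kept its call without any single pool. Rpl37 (-0.18 ± 0.05) lost its call without SNI replicate 2 (adjusted p = 0.136) or sham replicate 1 (0.186), and Rpl26 (-0.14 ± 0.04) without SNI replicate 2 (0.0837). Of the well-covered genes, Rpl8 mRNA had 240 and 235 CPM after SNI, against 221 and 221 CPM after sham (0.10 ± 0.02), and Rps3 had 284 and 283 CPM, against 267 and 265 CPM (0.09 ± 0.02). Rpl4, with 275 and 278 CPM after SNI, against 280 and 280 CPM after sham, did not pass (-0.02 ± 0.02).

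For footprints, Rps3, a small subunit protein at the mRNA entry, had 158 and 154 CPM after SNI, against 141 and 146 CPM after sham (0.12 ± 0.04, adjusted p = 0.0114 by edgeR). Rps4x, the X-linked small subunit protein, had 6.27 and 6.52 CPM, against 4.197 and 4.77 CPM (0.48 ± 0.17, adjusted p = 0.039). Neither gene's groups overlapped, but Rps4x lost its call without any 1 of the 4 pools (adjusted p = 0.0793 to 0.258), and Rps3 without SNI replicate 1, SNI replicate 2 or sham replicate 1 (0.174, 0.058 and 0.175). The 1 TE call was Rplp0, with log2 F/T of -0.87 and -0.78 after SNI, against -0.64 and -0.58 after sham. Its mRNA had 98.4 and 99.3 CPM after SNI, against 88.0 and 88.5 CPM, while its footprints overlapped at 53.9 and 57.9 CPM, against 56.5 and 59.0 CPM. The TE change of Rplp0 was -0.21 ± 0.07 (adjusted p = 0.0232), and it did not pass without SNI replicate 1 (0.224), SNI replicate 2 (0.0751) or sham replicate 2 (0.301).

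Markers of other cells moved with SNI in the same DRG libraries. Skeletal muscle genes summed to 191 to 194 CPM of mRNA after SNI, against 87.2 to 88.3 CPM after sham, with 9 of 10 higher. Macrophage and microglia genes summed to 197 to 199 CPM, against 135 to 140 CPM, with 6 of 8 higher. Other lists had more genes lower than higher: 6 of 10 sensory neuron genes were lower and 3 higher, 5 of 7 cord neuron genes lower and 0 higher (median -0.46), 4 of 6 astrocyte genes lower and 1 higher (-0.34), 3 of 6 oligodendrocyte genes lower and 1 higher (-0.76), and 5 of 8 erythroid and neutrophil genes lower and 0 higher (-0.17). Sensory neuron genes summed to 6112 to 6148 CPM after SNI, against 6265 to 6305 CPM after sham. The part of these lists in the changes of the ribosomal protein mRNAs was not tested. Of the other lists, 21 of 77 mitochondrial ribosomal protein mRNAs were lower and 0 higher (median -0.06), 6 of 18 other TOP mRNAs were higher and 4 lower (median -0.00), 4 of 20 ribosome biogenesis mRNAs were lower and 0 higher (median -0.02), and 3 of 14 mTORC1 and TOP control mRNAs were higher and 4 lower (median -0.05). Rack1, a scaffold on the small subunit, was higher by 0.10 ± 0.02 for mRNA.

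In the spinal cord no ribosomal protein gene passed. For mRNA 0 of 80 genes were called in either direction, where 1.47% of all 14723 genes were called higher and 2.73% lower. For footprints 0 of 44 were called, against 0.924% and 3.2% of 12018 genes, and for TE 0 of 44, against 0.169% and 0.135% of 11865 genes. At an unadjusted p under 0.05 by edgeR, 6 genes were higher and 1 lower for mRNA, 2 higher and 0 lower for footprints, and 2 higher and 0 lower for TE, and DESeq2 called 0 in all 3. The nearest was Rplp1 mRNA, with 142 and 142 CPM after SNI, against 124 and 140 CPM after sham (0.11 ± 0.04, adjusted p = 0.0789). The sham pools are the ones that differ in these genes: without sham replicate 1, 2 genes were lower, and without sham replicate 2, 4 were higher. The median log2 change of the family was 0.01 for mRNA and 0.04 for footprints, against -0.01 and -0.04 for all genes.

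The difference between the responses of DRG and spinal cord to SNI was tested as an interaction. For mRNA 3 of 80 genes were higher and 3 lower in DRG, against 7.82% and 5.97% of all 16716 genes. For footprints 0 of 56 were higher and 1 lower, against 4.92% and 2.5% of 14194 genes, and for TE 0 of 56 were higher and 1 lower, against 0.759% and 0.315% of 13966 genes. At an unadjusted p under 0.05 by edgeR, 2 genes were higher and 2 lower for footprints, and 0 higher and 3 lower for TE. DESeq2 called 0 genes in all 3. Rpl10a was called in each assay and with opposite signs: 0.40 ± 0.11 for mRNA, -1.50 ± 0.43 for footprints and -1.93 ± 0.45 for TE (adjusted p = 0.00552, 0.0195 and 0.00792 by edgeR). Its footprints had 4.43 and 4.03 CPM in DRG after SNI, against 3.64 and 3.81 CPM in DRG after sham, and 3.47 and 2.34 CPM in spinal cord after SNI, against 0.809 and 1.00 CPM after sham. Rpl10a had 62 footprint reads in spinal cord, under the read minimum, so it entered the footprint and TE tests only through its DRG reads. The sham spinal cord values rest on 6 and 11 of those 62 reads. Without spinal cord SNI replicate 1 the footprint difference was -1.18 and the TE difference -1.54, and neither kept its call. Without DRG sham replicate 2 the differences of Rpl10a had an adjusted p of 0.0585 for mRNA and 0.0866 for footprints and for TE. Its footprint call was also lost without DRG SNI replicate 2 (0.0729) and without spinal cord sham replicate 1 (0.0849) or 2 (0.0788).

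Several members have a near copy that is itself a gene, and these pairs can be told apart by their bases. The first 30 coding bases of 3 pairs are shown, with the bases that differ in capitals.
Rps27l (chromosome 9): atgccCctGgcTaGAgatctGTtAcaCccT
Rps27 (chromosome 3): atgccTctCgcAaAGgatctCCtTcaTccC
Rpl22l1 (chromosome 3): atggcgccGCAgaaaGaCAAGAAgCcTaag
Rpl22 (chromosome 4): atggcgccTGTgaaaAaGCTTGTgGcGaag
Rpl39l (chromosome 16): atgGcttctcacaagacCttcAgGatcaag
Rpl39 (chromosome X): atgTcttctcacaagacTttcCgAatcaag
These windows differed at 10, 12 and 4 bases. Of the 7 pairs, only Rpl39l and Rpl39 shared any 30-base coding window, 9 in all. Rpl39l and Rpl10l, both known mainly from testis, had at most 2 reads and 1 read in any library. Rpl3l, known from skeletal and heart muscle, had 0.491 and 0.538 CPM of mRNA in DRG after SNI, against 0.351 and 0.280 CPM after sham, and 0.835 and 0.527 CPM of footprints, against 0.280 and 0.358 CPM. Its DRG groups did not overlap, on 38 mRNA and 29 footprint reads, too few for the test. The muscle genes named above were also higher in DRG after SNI. In spinal cord Rpl3l mRNA had 0.755 and 0.713 CPM after SNI, against 0.846 and 0.711 CPM after sham, above its DRG values. The muscle genes summed there to 25.2 to 25.3 CPM of mRNA after SNI, against 33.3 to 33.7 CPM after sham, below their DRG values. The part of muscle in the Rpl3l reads was not tested.

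Rpl22l1, the paralog of the RNA-binding Rpl22, passed the test between tissues for footprints but not for mRNA. Its footprints had 10.8 and 13.3 CPM in sham DRG, against 20.9 and 19.05 CPM in sham spinal cord, and its mRNA 19.87 and 19.96 CPM, against 19.98 and 22.9 CPM. The log2 difference was -0.66 ± 0.12 for footprints, -0.10 ± 0.07 for mRNA and -0.57 ± 0.14 for TE (adjusted p = 1.55e-06, 0.2 and 0.000212 by edgeR). Rpl22 itself had 150 and 146 CPM of mRNA in sham DRG, against 97.1 and 101.2 CPM in sham spinal cord. Its footprints overlapped, at 25.6 and 27.4 CPM, against 28.6 and 24.1 CPM. The TE of Rpl22 was also called lower in DRG. By DESeq2 its log2 difference was -0.63 (adjusted p = 0.000275), and that of Rpl22l1 -0.70 (adjusted p = 0.0325). Rpl22l1 had 5.59% unique coding windows and Rpl22 42.5%, and the part of read placement in these differences was not tested. In the SNI pools Rpl22l1 footprints kept the same order, 12.3 and 11.9 CPM in DRG against 20.7 and 22.6 CPM in spinal cord.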

How the data were processed

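Footprint and poly(A)+ mRNA libraries of 8 lysates (16 libraries) were used. The authors removed reads of rRNA and tRNA with Bowtie 1.1.2, mapped the rest with STAR 2.5.2b to GRCm38.p5 and deposited HTSeq read counts per gene, RPKM values and TE, the ratio of footprint to mRNA RPKM of a lysate. The HTSeq version and its treatment of reads with several matches are not given in the sources used here. The deposited RPKM values were used only through the TE ratio, in 1 alternative. Libraries held 6898056 to 21613483 footprint and 18176471 to 28553113 mRNA reads in genes, and 84 genes matched the symbol rule.

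Counts were tested with edgeR 4.0.16 (R 4.3.3), quasi-likelihood, on genes with 128 or more reads summed over the libraries of a comparison in each assay used, with TMM factors from the 8 libraries of an assay. TE was tested as the interaction of assay and condition with a term for each lysate. P-values were adjusted by Benjamini-Hochberg over all genes tested, and an adjusted p under 0.05 was called. Log2 F/T ratios took 0.5 added reads. Uniqueness is the percent of 30-base windows of a gene's GENCODE M21 coding sequence found in no other annotated transcript. It was computed on transcripts and not on the genome. Starts came from RefSeq. Alternatives were DESeq2 1.42.0, limma 3.58.1 on deposited TE, other scalings and filters, a fixed coefficient of variation of 0.1, a 1.2-fold test, a replicate block and leaving out each replicate. The fits were tested on simulated data with 200 changed genes. Python 3.11.15 and matplotlib 3.10.9 drew the figures.

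The members and lists were chosen with earlier results of these data known. Named genes were the 5 largest called changes in each direction with groups not overlapping, the 5 highest and 5 lowest ratios and densities, paralogs, genes under 128 reads, and ribosomal proteins outside the symbol rule. Other genes, among them Rplp0, Rpl4, Rpl8 and Rpl22 in comparisons where that rule does not take them, were chosen after their values were seen. Some genes that the rule takes are not reported here.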

Additional observations from a re-analysis of the deposited data

Results flagged for a closer look

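In 8 cases the response to SNI differed between DRG and spinal cord by the interaction test (edgeR with Benjamini-Hochberg adjustment, n = 2 pools per group). The family had 3.75% of its genes called higher and 3.75% lower for mRNA, against 7.82% and 5.97% of all genes. The shares were 0% and 1.79% for footprints, against 4.92% and 2.5%, and 0% and 1.79% for TE, against 0.759% and 0.315%. For mRNA the log2 response in DRG minus that in spinal cord was 0.697 for Rps6 (SE 0.238, adjusted p = 0.04), 0.618 for Rpl10 (SE 0.212, adjusted p = 0.0407) and 0.404 for Rpl10a (adjusted p = 0.00552). It was -0.23 for Rpl34 (adjusted p = 0.0345), -0.21 for Rpl26 (adjusted p = 0.0485) and -0.127 for Rplp1 (adjusted p = 0.0462). Rpl10a also differed for footprints, by -1.5 (adjusted p = 0.0195), and for TE, by -1.93 (adjusted p = 0.00792). It was under the read minimum for footprints in spinal cord and entered both of these tests only through its DRG reads.

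Each of the 8 pools was left out in turn, for TE with both of its libraries. The edgeR call of Rps6 ended in 7 of 8 cases, of Rplp1 in 7, of Rpl10 in 6, of Rpl26 in 5 and of Rpl34 in 4. The mRNA call of Rpl10a was lost without DRG sham replicate 2 (0.0585). Its footprint call was lost in 5 cases (0.0729 to 0.231) and its TE call in 2 (0.0866 and 0.239). DESeq2 called 0 of the 8. The part of single pools in these differences was not tested further.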

How the results depend on the processing

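Over 825 alternative values of 51 named gene results, 672 kept direction and call, 153 kept direction and lost the call, and 21 results kept the call throughout. With DESeq2 the calls were 2 higher and 0 lower for DRG mRNA after SNI, 0 for DRG footprints and DRG TE, 12 lower for sham mRNA, 6 higher for sham footprints, 4 higher and 9 lower for sham TE, and 0 for all 3 differences of response. With the coefficient of variation fixed at 0.1 or against 1.2-fold, all calls of SNI in DRG went to 0, as did those of the mRNA and footprint responses. The TE response went to 0 with the fixed coefficient only. Sham mRNA then had 15 lower and sham footprints 7 higher under both, and sham TE 3 higher and 4 lower with the fixed coefficient, and 5 higher and 9 lower against 1.2-fold. With library sizes alone, 4 were lower for DRG mRNA, 2 higher for spinal cord mRNA, 13 lower for sham footprints and 1 lower for the mRNA response. Spinal cord mRNA had 1 higher with TMM from its own libraries and 2 with both tissues in 1 fit. With no filter, 1 was higher for DRG footprints, 0 lower for DRG TE, 1 higher for spinal cord footprints and for spinal cord TE, 17 higher for sham TE and 1 higher for the mRNA response. With the read minimum in every library, which tests fewer genes, 1 was higher for DRG footprints and for DRG TE, 13 lower for sham mRNA, 8 higher and 3 lower for sham footprints, 4 higher and 9 lower for sham TE, and 0 lower for the footprint and TE responses. By limma on deposited TE, 0 were lower for DRG TE, 5 higher for sham TE and 0 lower for the TE response. These counts are of ribosomal protein genes alone, and the shares of all genes under each alternative are not given here. The cause of these shifts was not tested.

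The median log2 F/T in DRG was -1.25 without the paralogs, -0.88 over genes with the read minimum in every library and -1.21 with library sizes alone. The median log2 footprint to mRNA ratio of the members, spinal cord only, was -1.005, -0.82 and -0.92, and -0.92 with 5 reads added. The large minus small subunit median was -0.47 in DRG and -0.15 in spinal cord over genes with the read minimum in every library.

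Leaving out 1 replicate gave 8 to 14 higher and 3 to 8 lower for DRG mRNA, 0 to 1 higher for DRG footprints, 0 to 1 lower for DRG TE, 0 to 4 higher and 0 to 2 lower for spinal cord mRNA, and 0 to 1 higher for spinal cord TE. It gave 32 to 34 higher and 18 to 23 lower for sham mRNA, 10 to 16 and 5 to 7 for sham footprints, 6 to 10 and 12 to 15 for sham TE, 1 to 4 and 0 to 4 for the mRNA response, and 0 to 1 lower for the footprint and TE responses. The median log2 F/T lay at -1.17 to -1.15 in DRG and -0.97 to -0.96 in spinal cord, and large minus small at 0.20 to 0.28 and 0.0020 to 0.094.

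The labels do not say that samples with the same number belong together, and they were not treated as pairs. The correlation of their deviations was 0.212 for DRG footprints, whose pools also differed most over all genes (mean chi-square 2.64 after SNI and 3.3 after sham), and -0.0307 to 0.0431 in the other 5 pairings. With the replicate block, 2 genes were higher for spinal cord mRNA and Rpl26 lost its mRNA response call (adjusted p = 0.0591 by edgeR), and no other named call changed. For footprints 28 of 84 genes were under the read minimum, and the part of depth in this was not tested.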
